A study of Taeniopygia guttata with 22 samples.

Results

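The zebra finch Z chromosome is present in 2 copies in males (ZZ) and in 1 copy in females (ZW), and the genes described here are 48 broadly expressed genes proposed as Z-linked, named by symbol. They were matched to the deposited table of gene counts through the NCBI gene ID, and 46 of the 48 symbols had an entry among the 21786 gene IDs. SMAD4 and DIMT1 had none and are not analysed here. In the table of the bTaeGut7.mat assembly 45 of the 46 lie on Z, whereas BAG1 lies on chromosome 2, so BAG1 goes against the label and is given below as an autosomal gene among Z-linked ones. Gene expression was measured in the robust nucleus of the arcopallium (RA), the forebrain motor nucleus for song, laser-captured from cresyl violet stained sections. The 22 libraries fall into 4 groups, which are 20-day females (5), 20-day males (5), 50-day females (7) and 50-day males (5), with ages in days posthatch. The brain ids of female 50-day replicates 5 and 6 share a number, so the 7 may come from 6 birds. The labels name no treatment or allele. Birds were taken soon after lights-on and none was seen to sing, and RNA was amplified with SMART-Seq v4 from 1 ng. The comparisons ask how far each gene was higher in males at each age, and whether it changed with age in each sex.

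Birds lack a chromosome-wide mechanism that equalises Z expression between the sexes, unlike the inactivation of one X in female mammals. Each Z gene is instead balanced, or left unbalanced, largely on its own, so that the male to female ratio of Z genes ranges from equality to the ratio of the gene copies. RA is a nucleus in which the sexes diverge as juveniles: it grows in males, which learn song, and loses neurons in females, which do not sing.

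The libraries held 16.17 M to 65 M counts. All 5 females at 20 days exceeded 40 M and all 5 males at 20 days stayed below it, whereas at 50 days 1 female and 3 males exceeded it. All 46 genes passed the filter on low counts, and the smallest count of any of them in a library was 30, for XRCC4. Levels are given as CPM, the counts per 1e6 counts of a library after TMM scaling of library sizes. A gene was called at an adjusted p under 0.05, by edgeR's quasi-likelihood test with Benjamini-Hochberg adjustment over the 16004 genes tested, and every adjusted p below comes from that test.

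At 20 days 30 of the 46 genes were called higher in males and 0 lower, where 1.92% of all genes tested were called higher and 0.181% lower. The median difference was 0.81 on the log2 scale, a 1.75-fold higher level in males, and 45 of 46 differences were above 0, the exception being BAG1. For 35 genes every male library was above every female library and for 0 below, against 2.6% and 1.01% of all genes. Across the 658 Z-linked genes tested 42.7% were called higher and the median was 0.69, while 0.124% of the 12921 autosomal genes were called higher. Of the 308 genes called higher 281 were Z-linked, and 30 of those belong to the set. The set was chosen with earlier results of these data known. Its shares and medians at either age are therefore descriptions and no independent comparison with all Z-linked genes.

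At 50 days 35 of the 46 genes were called higher in males and 1 lower, where 16% of all genes were called higher and 17.2% lower. The median difference was 0.68, or 1.60-fold. Males were above all females for 28 genes and below them for 1, against 8.42% and 7.67% of all genes. Among all Z-linked genes 57.4% were called higher and 5.32% lower, with a median of 0.67, so the median of the 46 genes lay beside that of the whole chromosome. The single gene called lower was B4GALT1, a Golgi galactosyltransferase. Values at this age reached both ends of the range, from -0.37 for B4GALT1 to 3.56 for ACOT12, a wider spread than the -0.16 to 1.37 of day 20.

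**Figure D1:**
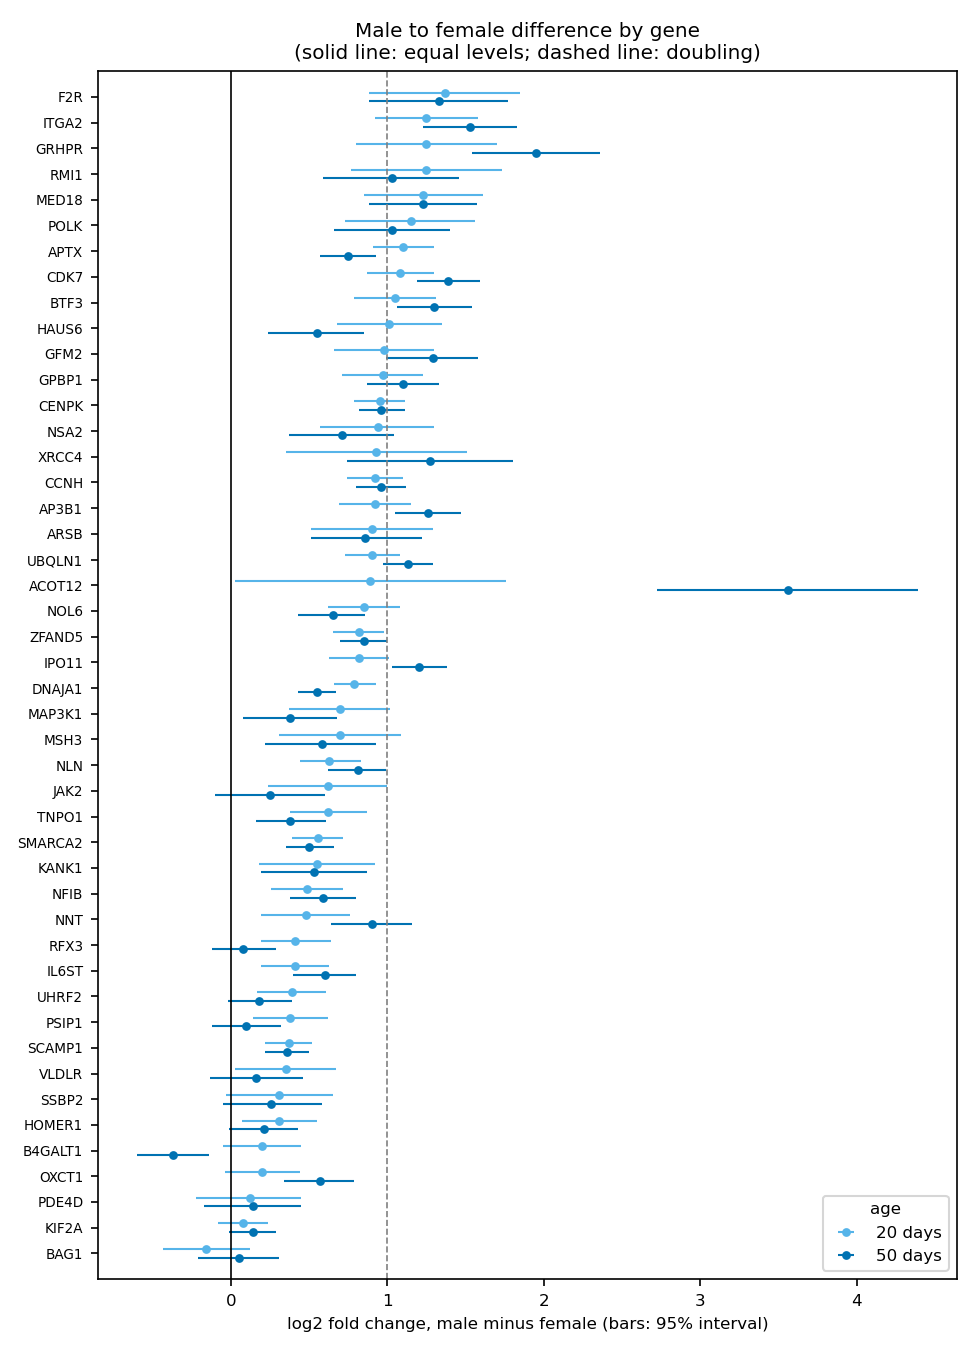
Log2 male to female difference of each of the 46 genes at 20 days and at 50 days, with its 95% interval from the edgeR fit; the dashed line marks the doubling of gene copies. At 20 days all values lie between -0.16 and 1.37, and at 50 days ACOT12 stands apart at 3.56.

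The fold of the gene copies, a doubling, was compared with each gene's interval. At 20 days the 95% interval of the difference lay below a doubling for 22 genes, held it for 24 and lay above it for 0. At 50 days it lay below for 26, held it for 13 and lay above it for 7, which were ACOT12, AP3B1, BTF3, CDK7, GRHPR, IPO11 and ITGA2. Those were 56.5%, 28.3% and 15.2% of the 46 genes. For all Z-linked genes the shares below, holding and above a doubling were 40%, 59.9% and 0.152% at 20 days. At 50 days they were 45.4%, 43.2% and 11.4%. Of the Z-linked intervals that held a doubling, 102 of 394 at 20 days and 79 of 284 at 50 days also held equality. Among the 46 genes 0 did at either age, so the shares holding a doubling are not alike in precision. Intervals of 12 genes held a doubling at both ages, and those of 21 genes, BAG1 included, lay below it at both. Over the 45 Z-linked genes the differences at the 2 ages, which come from different birds in one fit, were ordered alike, with Pearson's r of 0.67 and Spearman's rho of 0.83. Without ACOT12 Pearson's r was 0.84 over 44 genes. Of the 46 genes 29 were called higher at both ages and only RFX3 was called at 20 days alone. Another 6, ACOT12, KANK1, MSH3, NNT, OXCT1 and XRCC4, were called at 50 days alone, and 9 were called at neither age. Counts over both ages, of calls and of intervals, are not given here for all Z-linked genes, so they describe the 46 genes alone.

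**Figure D2:**
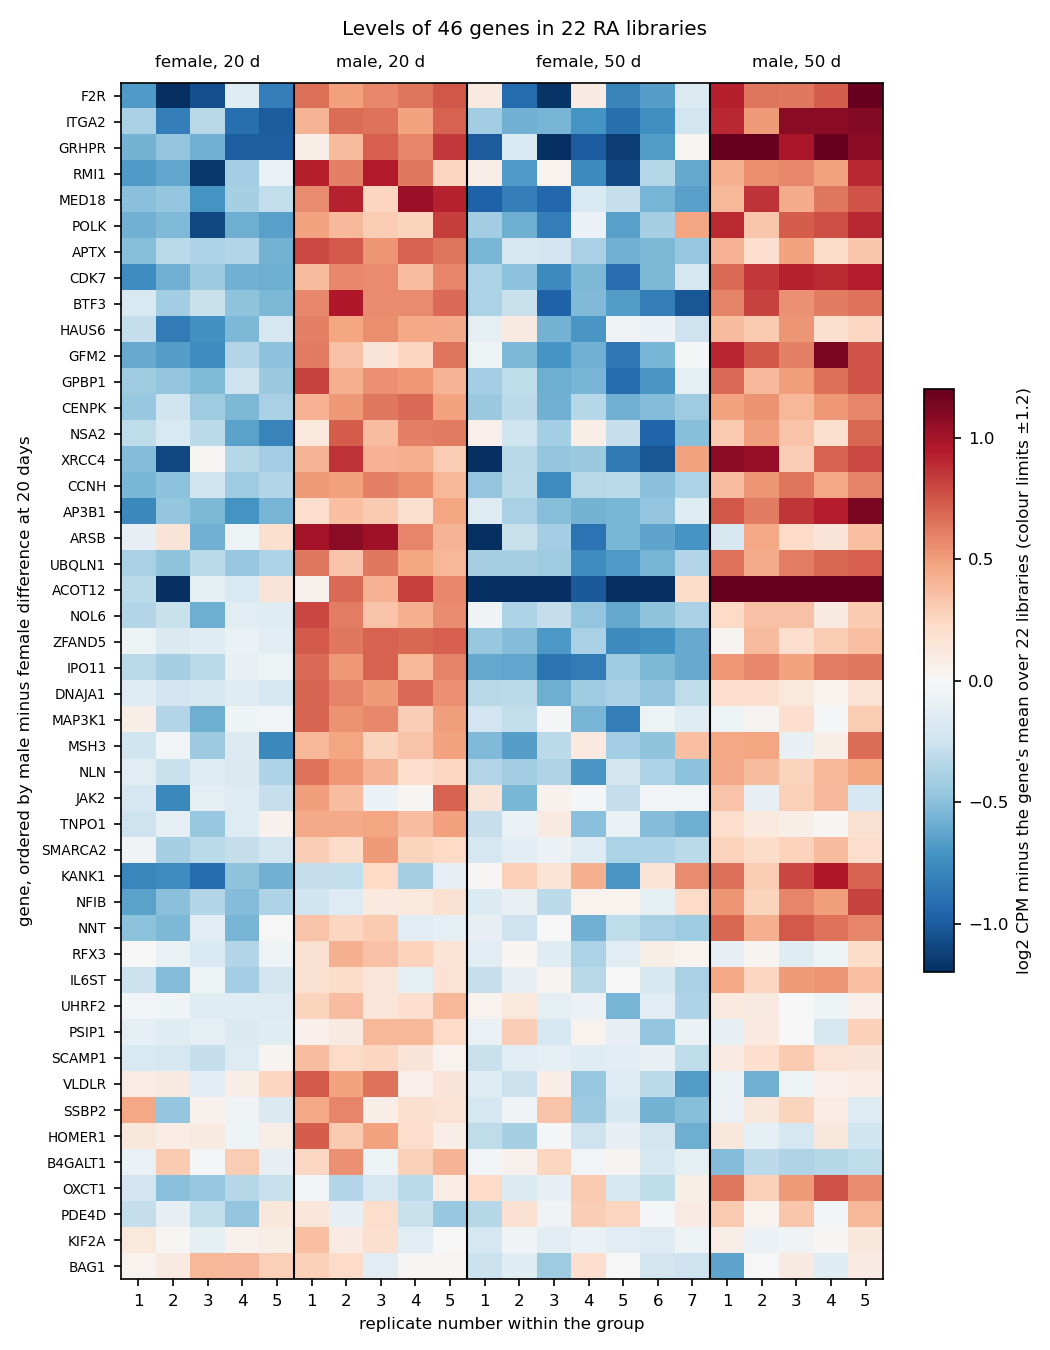
Level of each of the 46 genes in each of the 22 libraries, as log2 CPM minus the gene's mean over libraries, with libraries grouped by sex and age. At 20 days the fitted male level was above the female one for 45 of the 46 genes, and ACOT12 is high in the 5 males at 50 days.

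Depth and sex cannot be told apart within a depth set at 20 days, since no set holds both sexes. A term for the depth set is fitted from the 50-day libraries alone, since neither 20-day group holds both depths. Its effect is carried over to 20 days and was not measured there. With the depth set as a term of the model 20 of the 30 genes remained called at 20 days, and the calls of GRHPR, RMI1, RFX3, NFIB, SCAMP1, ARSB, NSA2, TNPO1, MAP3K1 and IL6ST were lost. Their differences with that term were 1.29 for GRHPR, 1.32 for RMI1, 0.54 for RFX3, 0.57 for NFIB, 0.79 for MAP3K1 and 0.44 for IL6ST, no smaller than without it. The other 4 were smaller, at 0.35 for SCAMP1, 0.78 for ARSB, 0.63 for NSA2 and 0.52 for TNPO1. At 50 days the comparison could be made within each set. The median over the 45 Z-linked genes was 0.70 between 2 males and 6 females of the shallow set and 0.87 between 3 males and 1 female of the deep set, and 43 of 45 differences were above 0 in each. A fit of the shallow libraries alone called 26 genes higher in males at 50 days in place of 35, without KANK1, MSH3, OXCT1, XRCC4, POLK, NFIB, HAUS6, MAP3K1 and TNPO1. With the depth term the 50-day calls of KANK1 (adjusted p = 0.0782) and MAP3K1 (adjusted p = 0.14) were also lost. Shares of all genes called in these fits are not given here, so the losses cannot be set against those of other genes.

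None of the listed cell type markers was called between the sexes at 20 days, when the astrocyte sums were 3858 to 5315 CPM in males and 3054 to 4020 CPM in females. At 50 days several were called, where 16% of all genes tested were called higher in males and 17.2% lower. All 9 GABAergic interneuron markers were lower in males at 50 days, with a summed level of 512 to 862 CPM against 1107 to 1420 CPM in females. Of 4 astrocyte markers 3 were higher in males, with sums of 5118 to 6686 CPM against 3209 to 3702 CPM. Of 5 endothelial and mural markers 3 were higher, with sums of 383 to 555 CPM against 202 to 297 CPM. Of 7 projection neuron markers 2 were lower, with sums of 1258 to 2119 CPM in males and 1735 to 2963 CPM in females. None of 4 oligodendrocyte markers was called, although their sums were 6926 to 12211 CPM in males and 2653 to 6432 CPM in females. None of 5 microglial and 3 red blood cell markers was called. The markers were not split by chromosome, so any that lie on Z are counted in these sums. The part of these differences in the 50-day values was not tested, and in dissected tissue fewer cells of a type and less RNA per cell cannot be told apart.

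Among the 9 genes for receptors and signal transducers 4 were called higher in males at 20 days and 5 at 50 days, with medians of 0.55 and 0.38. Counts by role, here and below, stand beside 42.7% and 57.4% of all Z-linked genes called higher at 20 and 50 days. Among the 46 genes, of which the roles are parts, 65.2% and 76.1% were called higher. F2R encodes a receptor activated by thrombin and other proteases. Its level at 20 days was 44.4, 39.5, 41.7, 43.7 and 46.9 CPM in males and 17.5, 11.7, 13.5, 25.3 and 15.9 CPM in females. At 50 days it was 53.4, 43.6, 43.4, 46.4 and 74.6 CPM in males, and in the 7 females the lowest, median and highest were 12.4, 17.7 and 30.3 CPM. Males were above all females at both ages. F2R was 2.58-fold higher in males at 20 days (95% interval 1.84 to 3.62, adjusted p = 0.000685) and 2.51-fold higher at 50 days (1.85 to 3.41, adjusted p = 4.54e-05).

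ITGA2, the integrin alpha 2 subunit that binds collagen, read 20.7, 24.8, 24.5, 21.8 and 25.5 CPM in males and 11.9, 8.78, 12.4, 8.33 and 7.79 CPM in females at 20 days. Males at 50 days read 29.2, 22.3, 33, 33.1 and 33.4 CPM, and in 50-day females the lowest, median and highest were 8.33, 10.5 and 13.4 CPM. The sexes did not overlap at either age. The difference of 1.25 (SE 0.16, adjusted p = 1.15e-05) at 20 days was 1.53 (SE 0.14, adjusted p = 4.16e-08) at 50 days, where its interval of 2.34-fold to 3.55-fold lay above a doubling.

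IL6ST is gp130, the signalling chain shared by receptors of interleukin 6 family cytokines. It read 42.7, 43.8, 41.4, 34.5 and 42.3 CPM in 20-day males and 31.4, 26.1, 35.9, 28.3 and 32.3 CPM in 20-day females. The male library at 34.5 CPM lay below the highest female, so the groups overlapped by that library. In 50-day males IL6ST read 51.9, 45, 53.3, 54.3 and 48.2 CPM, all above the 28.7, 32.8 and 38.3 CPM that were the lowest, median and highest of the females. The difference was 1.33-fold at 20 days (adjusted p = 0.036), a call lost without any of 8 libraries in turn, and 1.52-fold at 50 days (adjusted p = 4.14e-05), below a doubling at both ages.

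JAK2, the tyrosine kinase that carries cytokine receptor signals, was called at neither age. It read 14.7, 13.5, 9.94, 10.5 and 17 CPM in 20-day males and 9.03, 6.08, 9.66, 9.34 and 8.59 CPM in 20-day females, without overlap. Its 50-day male levels were 13.2, 9.75, 12.7, 13.6 and 9.02 CPM, within reach of the females, whose lowest, median and highest were 7.1, 10.2 and 11.6 CPM. The ratio was 1.53-fold at 20 days (1.18 to 1.99, adjusted p = 0.0985) and 1.19-fold at 50 days (0.93 to 1.51, adjusted p = 0.278).

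VLDLR, a receptor for reelin in the developing brain, read 37.5, 31.5, 35.5, 23.5 and 25.1 CPM in males and 24, 24.4, 20.6, 23.8 and 27 CPM in females at 20 days. At 50 days it read 21.3, 15.1, 21.6, 23.6 and 24 CPM in males, and 14.2, 18.9 and 23.8 CPM were the lowest, median and highest in females. The sexes overlapped at both ages, with ratios of 1.28-fold (adjusted p = 0.421) and 1.12-fold (adjusted p = 0.408).

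PDE4D, which degrades cyclic AMP, stood close to equality. It read 13.1, 11.1, 13.7, 9.85 and 8.66 CPM in 20-day males, and 9.72, 11.1, 9.64, 8.54 and 13 CPM in 20-day females. The 5 males of day 50 had 14.7, 12.2, 14.9, 11.6 and 15.6 CPM, against 9.38, 12.7 and 14.6 CPM as the lowest, median and highest of the females. Both pairs of groups overlapped. Its ratios of 1.09-fold (0.86 to 1.37) and 1.10-fold (0.89 to 1.36) had intervals that excluded a doubling.

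HOMER1 builds the postsynaptic scaffold that ties metabotropic glutamate receptors to calcium stores. Its level was 163, 122, 138, 114 and 104 CPM in 20-day males and 108, 105, 106, 94.9 and 104 CPM in 20-day females. At 50 days the males read 108, 91.5, 84.9, 108 and 83.3 CPM, and the lowest, median and highest female values were 65.4, 82.8 and 97 CPM. Groups overlapped at each age, and ratios of 1.24-fold (adjusted p = 0.285) and 1.16-fold (adjusted p = 0.144) were not called. KANK1, an adaptor that links the actin cytoskeleton to adhesion sites, was 1.46-fold higher in males at 20 days (adjusted p = 0.165) and 1.44-fold higher at 50 days (adjusted p = 0.0151). MAP3K1, a kinase upstream of JNK, was called at both ages, at 1.62-fold and 1.30-fold, and the 50-day call (adjusted p = 0.0476) was lost without any of 14 libraries in turn.

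The 7 metabolic genes had 3 members called higher at 20 days, and 6 higher and 1 lower at 50 days, with medians of 0.63 and 0.86. All Z-linked genes had 42.7% called higher at 20 days, and 57.4% higher and 5.32% lower at 50 days. GRHPR reduces glyoxylate and hydroxypyruvate. Its level was 33.2, 40.9, 51.8, 47.3 and 56.4 CPM in 20-day males and 21.2, 22.7, 21, 15.8 and 15.8 CPM in 20-day females. Day 50 males gave 75.1, 87, 61.8, 89.3 and 66.5 CPM, and 12.4, 15.7 and 31.9 CPM were the lowest, median and highest in females. All males were above all females at both ages. The ratio of 2.38-fold (1.74 to 3.26, adjusted p = 0.000742) at 20 days was 3.87-fold (2.90 to 5.14, adjusted p = 1.23e-07) at 50 days, although a model with a depth term gave an adjusted p of 0.0592 at 20 days.

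ACOT12, an acetyl-CoA thioesterase, had the widest difference of the set at 50 days. At 20 days it read 22.7, 35.2, 29.3, 38.7 and 32.7 CPM in males and 17.5, 3.72, 20.3, 19.3 and 24.5 CPM in females, with 1 male inside the female range. At 50 days it read 103, 117, 99.1, 134 and 82.3 CPM in males, and the lowest, median and highest female values were 4.35, 6.23 and 25.5 CPM. No 50-day female came near a 50-day male. The 20-day ratio was 1.86-fold (1.02 to 3.38, adjusted p = 0.477) and the 50-day ratio 11.77-fold (6.61 to 20.96, adjusted p = 5.47e-07).

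B4GALT1 adds galactose to glycans in the Golgi apparatus. It read 32, 39.4, 25.7, 32.8 and 35.6 CPM in 20-day males and 25.5, 33.5, 26.7, 33.3 and 25.1 CPM in 20-day females, which overlapped. By 50 days males read 18.8, 21.6, 21, 21.2 and 21.7 CPM, all below the females, whose lowest, median and highest were 23.6, 26.3 and 32.1 CPM. The difference was 0.20 at 20 days (adjusted p = 0.665) and -0.37 at 50 days (SE 0.11, adjusted p = 0.0135). The 50-day call was lost with the depth set as a term (-0.31, adjusted p = 0.0846) and in shallow libraries alone (-0.36, adjusted p = 0.2).

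ARSB is a lysosomal sulfatase that degrades chondroitin and dermatan sulfate. Its level was 31.3, 33.2, 31.6, 23.5 and 20.7 CPM in 20-day males and 14.6, 17.4, 10.5, 15 and 17.9 CPM in 20-day females. At 50 days the males read 13.7, 21.5, 18.3, 17.4 and 20.1 CPM and the lowest, median and highest female values were 6.35, 10.1 and 13 CPM. Sexes were separate at both ages, with ratios of 1.86-fold (adjusted p = 0.00626) and 1.82-fold (adjusted p = 0.000476).

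OXCT1, which lets mitochondria use ketone bodies, read 253, 203, 225, 206 and 274 CPM in 20-day males and 221, 183, 188, 204 and 215 CPM in 20-day females. Males at 50 days read 401, 315, 367, 438 and 384 CPM, and 209, 242 and 321 CPM were the lowest, median and highest in females. At 50 days 1 male lay inside the female range. Ratios were 1.15-fold (adjusted p = 0.647) at 20 days and 1.48-fold (adjusted p = 0.000275) at 50 days. NNT, the mitochondrial transhydrogenase that makes NADPH, was 1.39-fold higher at 20 days (adjusted p = 0.0878) and 1.87-fold at 50 days (adjusted p = 8.24e-06). NLN, the peptidase neurolysin, was called at both ages, at 1.55-fold and 1.75-fold.

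**Figure D3:**
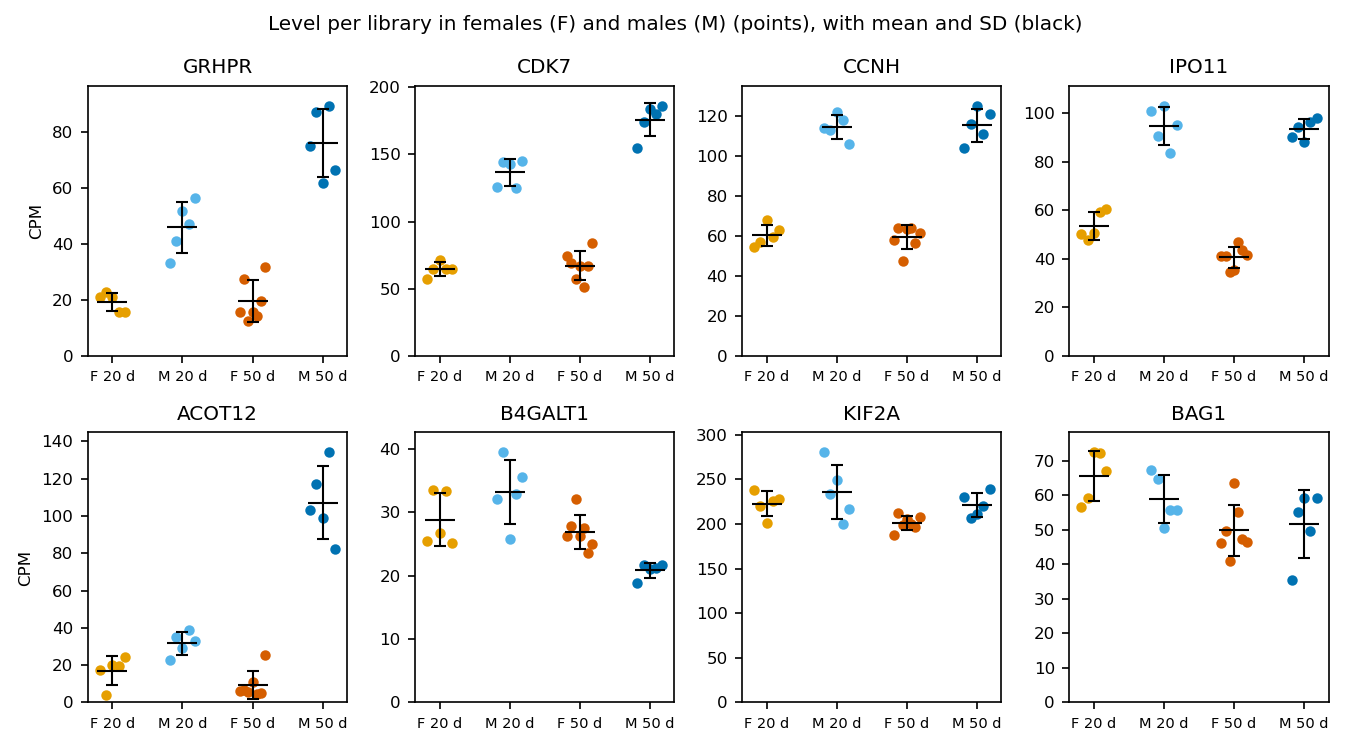
CPM in every library of selected genes, by sex and age, with points for libraries and black marks for the group mean and SD. GRHPR and CDK7 separate the sexes at both ages, ACOT12 at 50 days, and KIF2A overlaps at both ages.

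Of the 11 genes for transcription and chromatin 8 were called higher at 20 days and 7 at 50 days, with medians of 0.56 and 0.59. Across all Z-linked genes 42.7% and 57.4% were called higher at these ages. CDK7 and CCNH are the kinase and the cyclin of the CDK-activating complex, which also phosphorylates RNA polymerase II as part of TFIIH. CDK7 read 126, 144, 143, 125 and 145 CPM in 20-day males and 57.6, 64.8, 71.5, 64.8 and 64.5 CPM in 20-day females. Its 50-day male levels were 155, 174, 184, 180 and 186 CPM, and the lowest, median and highest female values were 51.5, 66.7 and 84.2 CPM. The sexes were far apart at both ages. The ratio was 2.12-fold (1.82 to 2.46, adjusted p = 2.72e-07) at 20 days and 2.62-fold (2.29 to 3.00, adjusted p = 3.56e-10) at 50 days.

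Its partner CCNH read 114, 113, 122, 118 and 106 CPM in 20-day males and 54.7, 56.9, 67.8, 59.6 and 62.9 CPM in 20-day females. The 5 males of day 50 had 104, 116, 125, 111 and 121 CPM, against 47.5, 61.5 and 64.1 CPM as the lowest, median and highest of the females. There was no overlap. CCNH differed 1.89-fold (1.68 to 2.14) and 1.94-fold (1.74 to 2.17), so both intervals held a doubling.

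MED18 belongs to the head of the Mediator complex, which bridges transcription factors and RNA polymerase II. It read 12.2, 15.6, 9.84, 16.9 and 15.6 CPM in 20-day males and 5.83, 5.96, 5.02, 6.25 and 6.71 CPM in 20-day females. At 50 days the males read 10.9, 15, 11.2, 12.8 and 13.9 CPM, above the females, whose lowest, median and highest were 4.21, 5.25 and 7.25 CPM. The ratio was 2.35-fold (adjusted p = 0.0001) at 20 days and 2.34-fold (adjusted p = 6.06e-06) at 50 days.

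SMARCA2, an ATPase of the BAF chromatin remodelling complex, was male-high by less than a doubling. Males read 225, 214, 261, 221 and 216 CPM at 20 days and females 178, 139, 147, 150 and 157 CPM. At 50 days males read 222, 214, 222, 239 and 213 CPM, and the lowest, median and highest female values were 141, 160 and 175 CPM. The groups were separate at both ages with ratios of 1.47-fold (1.31 to 1.65, adjusted p = 6.54e-05) and 1.42-fold (1.28 to 1.58, adjusted p = 1.47e-05).

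NFIB is a nuclear factor I transcription factor that acts in neuronal and glial differentiation. It read 62.6, 66.4, 80.4, 80.7 and 84 CPM in 20-day males and 47.5, 52.2, 58, 51.6 and 57.2 CPM in 20-day females. Day 50 males gave 107, 89.2, 111, 105 and 130 CPM, and 59.5, 69.4 and 86.8 CPM were the lowest, median and highest in females. Sexes were separate at each age, at 1.40-fold (adjusted p = 0.0127) and 1.51-fold (adjusted p = 8.98e-05).

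RFX3, a transcription factor of ciliary genes, read 29.4, 34.9, 33.1, 31.5 and 29 CPM in 20-day males and 26, 24.5, 22.8, 20.3 and 24.8 CPM in 20-day females, without overlap. By 50 days males read 24.3, 26.5, 23.4, 25 and 30.2 CPM, overlapping the females, whose lowest, median and highest were 19.9, 23.7 and 27.3 CPM. It was 1.33-fold higher at 20 days (adjusted p = 0.0398), a call lost without any of 9 libraries in turn, and 1.06-fold at 50 days (adjusted p = 0.549).

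The remaining transcription genes split in the same way. BTF3, known as a basal transcription factor and as a subunit of the nascent polypeptide complex on ribosomes, was 2.07-fold and 2.45-fold higher, and GPBP1, a promoter-binding factor, 1.96-fold and 2.14-fold, all called. PSIP1, a coactivator that reads methylated histone H3, was 1.30-fold (adjusted p = 0.107) and 1.07-fold (adjusted p = 0.506). UHRF2, a ubiquitin ligase that binds modified DNA, was 1.31-fold (adjusted p = 0.0647) and 1.14-fold (adjusted p = 0.16). SSBP2, a cofactor of LIM-domain transcription complexes, was 1.24-fold (adjusted p = 0.581) and 1.20-fold (adjusted p = 0.193).

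The 5 DNA repair genes had medians of 1.10 at 20 days and 1.03 at 50 days, with 3 called at 20 days and all 5 at 50 days, all of them higher in males. Shares called higher among all Z-linked genes were 42.7% and 57.4%. In shallow libraries alone the 50-day calls of POLK (0.83, adjusted p = 0.0681), XRCC4 (1.11, adjusted p = 0.0697) and MSH3 (0.42, adjusted p = 0.302) were lost. RMI1 works with the BLM helicase to dissolve crossed DNA strands. It read 11.8, 9.4, 12, 9.64 and 7.41 CPM in 20-day males and 3.87, 4.03, 2.77, 4.66 and 5.88 CPM in 20-day females. Males at 50 days read 8.33, 9.14, 9.24, 8.66 and 11.6 CPM, and the lowest, median and highest female values were 2.92, 4.04 and 6.57 CPM. Males were above all females at both ages, by 2.37-fold (1.70 to 3.31, adjusted p = 0.0016) and 2.04-fold (1.51 to 2.76, adjusted p = 0.000603). With the depth set as a term the 20-day adjusted p was 0.0749.

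Of the other repair genes, APTX, which mends abortive ligation ends, was 2.15-fold higher at 20 days (adjusted p = 7.13e-08) and 1.68-fold at 50 days (adjusted p = 7.41e-07). POLK, a polymerase that copies past damaged bases, was 2.21-fold and 2.04-fold higher, called at both ages. XRCC4, which holds DNA ligase IV at broken ends, was 1.91-fold (adjusted p = 0.108) and 2.41-fold (adjusted p = 0.000508). MSH3, a mismatch recognition protein, was 1.63-fold (adjusted p = 0.053) and 1.49-fold (adjusted p = 0.0124).

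Spindle genes held both a near-doubling and a near-equality. KIF2A, a kinesin that disassembles microtubules, read 280, 233, 249, 200 and 217 CPM in 20-day males and 238, 220, 201, 226 and 228 CPM in 20-day females. Its 50-day male levels were 230, 207, 211, 220 and 239 CPM, and 188, 200 and 212 CPM were the lowest, median and highest in females. Groups overlapped at both ages. Its ratios of 1.06-fold (0.95 to 1.18, adjusted p = 0.84) and 1.10-fold (0.99 to 1.22, adjusted p = 0.151) excluded a doubling. CENPK, an inner kinetochore protein, was 1.94-fold and 1.95-fold higher (adjusted p = 3.56e-08 and 9.21e-10), and HAUS6, an augmin subunit that branches spindle microtubules, 2.02-fold and 1.46-fold (adjusted p = 0.000242 and 0.00589).

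Of the 4 protein quality control genes the 3 on Z were called higher at both ages, where 42.7% and 57.4% of all Z-linked genes were. ZFAND5, a zinc finger protein that stimulates the proteasome, read 179, 167, 176, 174 and 177 CPM in 20-day males and 103, 95.7, 97.3, 102 and 98.4 CPM in 20-day females. The 5 males of day 50 had 110, 140, 124, 133 and 138 CPM, above the 63.3, 70.8 and 82.2 CPM that were the lowest, median and highest of the females. The sexes were separate at both ages, at 1.76-fold (adjusted p = 2.72e-07) and 1.80-fold (adjusted p = 8.86e-09). UBQLN1, which carries ubiquitinated proteins to the proteasome, was 1.87-fold and 2.19-fold higher, and DNAJA1, a co-chaperone of HSP70, 1.74-fold and 1.47-fold.

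BAG1, a nucleotide exchange factor of HSP70 that the reference table places on chromosome 2, read 67.3, 64.7, 50.6, 55.7 and 55.7 CPM in 20-day males and 56.6, 59.3, 72.4, 72.2 and 67.1 CPM in 20-day females. Day 50 males gave 35.5, 55.2, 59.2, 49.7 and 59.1 CPM, and the lowest, median and highest female values were 41.1, 47.2 and 63.5 CPM. Groups overlapped at both ages, with ratios of 0.90-fold (0.74 to 1.09) and 1.04-fold (0.87 to 1.24).

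All 3 genes of ribosome building and translation, and all 4 of trafficking and nuclear import, were called higher at both ages. Across all Z-linked genes 42.7% were called higher at 20 days and 57.4% at 50 days. With the depth set as a term the 20-day calls of NSA2, SCAMP1 and TNPO1 were lost. NOL6, which processes small subunit ribosomal RNA, was 1.80-fold and 1.56-fold higher. NSA2, an assembly factor of the large subunit, was 1.92-fold and 1.63-fold, and GFM2, which recycles mitochondrial ribosomes, 1.98-fold and 2.44-fold. AP3B1, the beta subunit of the AP-3 adaptor that sorts cargo to lysosome-related organelles, was 1.89-fold and 2.39-fold, and SCAMP1, a membrane protein of secretory carriers, 1.30-fold and 1.28-fold. TNPO1, the import receptor transportin 1, was 1.54-fold and 1.30-fold.

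IPO11, an importin of the same family as transportin, read 101, 90.6, 103, 83.5 and 95.3 CPM in 20-day males and 50.4, 47.9, 50.5, 59.2 and 60.5 CPM in 20-day females. By 50 days males read 90.4, 94.4, 88.3, 96.5 and 97.9 CPM, and 34.5, 41.2 and 46.9 CPM were the lowest, median and highest in females. No male library reached down to a female one. The ratio was 1.76-fold (1.54 to 2.01, adjusted p = 2.03e-06) at 20 days and 2.30-fold (2.04 to 2.60, adjusted p = 5.08e-10) at 50 days.

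Between 20 and 50 days 10 of the 46 genes rose and 9 fell in males, where 12.5% of all genes were called higher and 14.2% lower with age. In females 3 rose and 6 fell, where 6.8% and 8.05% were called. KANK1, NFIB and OXCT1 rose in both sexes, and ARSB, DNAJA1, HOMER1 and ZFAND5 fell in both, while 25 genes had no age call in either sex. Matching shares of all genes over both sexes are not given here. KANK1 rose by 0.85 (adjusted p = 0.00102) in males, from 20.3, 20.1, 29.2, 18.7 and 23 CPM to 39.1, 30.5, 43.1, 48 and 40.4 CPM, without overlap. In females it rose by 0.87 (adjusted p = 0.00123), from 14.3, 14.6, 13, 17.7 and 16.5 CPM to a lowest, median and highest of 15.2, 27.7 and 36.5 CPM, which overlapped.

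NFIB rose by 0.53 in males (adjusted p = 0.00087) and by 0.43 in females (adjusted p = 0.00656), and the ages were separate in both sexes. OXCT1 rose by 0.71 in males (adjusted p = 8.31e-05) and by 0.35 in females (adjusted p = 0.0334). Rises called in males alone were those of ACOT12 (1.76, adjusted p = 0.0033), GRHPR (0.73, adjusted p = 0.0146), AP3B1 (0.56), NNT (0.47), GFM2 (0.42), CDK7 (0.36) and IL6ST (0.30). A rise called in males and not in females is not by itself a difference between the sexes, which the interaction below tests.

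ZFAND5 fell by 0.44 in males (adjusted p = 0.000203) and by 0.47 in females (adjusted p = 0.000137), and each sex was separate between ages. ARSB fell by 0.63 in males (adjusted p = 0.0154) and by 0.59 in females (adjusted p = 0.0225), with overlapping ages in both sexes. DNAJA1 fell by 0.46 and 0.21, and HOMER1 by 0.43 and 0.33, in males and females. In males B4GALT1 fell by 0.67 (adjusted p = 0.000223), VLDLR by 0.53 (adjusted p = 0.0127), MAP3K1 by 0.43, APTX by 0.35 and TNPO1 by 0.32. In females IPO11 fell by 0.40 (adjusted p = 0.00238) and BAG1 by 0.39 (adjusted p = 0.0334).

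Depth ran with age in opposite directions in the sexes. In females all 5 libraries were deep at 20 days, and 6 were shallow and 1 deep at 50 days. In males all 5 were shallow at 20 days, and 3 were deep and 2 shallow at 50 days. Depth was thus unevenly spread over each age change and over the interaction. Fewer age calls were made with the depth set as a term and in the shallow libraries alone. With the set as a term 6 genes rose and 5 fell in males, and in females KANK1 alone rose and ZFAND5 alone fell. Within the shallow libraries alone 4 male calls were made, the rises of ACOT12 and OXCT1 and the falls of DNAJA1 and B4GALT1. That fit held 5 males at 20 days and only 2 at 50 days, and the part of the smaller number in the lost calls was not tested. Uncalled changes there included 0.75 for KANK1 and -0.39 for ZFAND5. The shares of all genes with an age call in either fit are not given here. Calls lost with the depth term often kept similar fitted changes, such as 0.71 for GRHPR and 0.48 for NNT in males, and 0.50 for NFIB, 0.36 for OXCT1 and -0.70 for ARSB in females. Others were smaller with the term, such as -0.22 for HOMER1 in females and -0.26 for TNPO1 in males. The fall of BAG1 in females was larger, at -0.55.

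**Figure D4:**
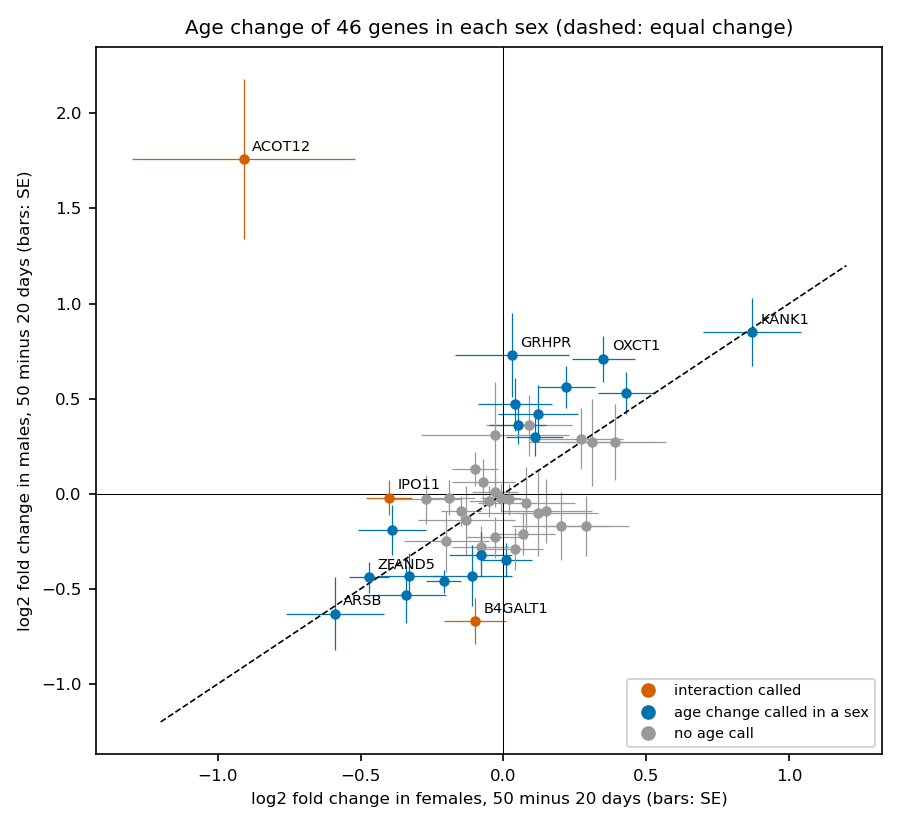
Log2 change from 20 to 50 days in males against that in females for each of the 46 genes, with females on the horizontal axis, males on the vertical axis and bars of 1 SE. ACOT12 lies at 1.76 in males and -0.91 in females, and KANK1 at 0.85 and 0.87.

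The interaction, in which the age change of females was subtracted from that of males, was called for 3 of the 46 genes, where 5.75% of all genes were called higher and 6.57% lower. ACOT12 had 2.66 (SE 0.57, adjusted p = 0.00393), made of the male rise of 1.76 and a female value of -0.91 that was not called (adjusted p = 0.118). That female fall was called without female 20-day replicate 2 (3.72 CPM), without female 50-day replicate 7 (25.5 CPM), and with a replicate block. B4GALT1 had -0.57 (SE 0.16, adjusted p = 0.0251), with the fall in males and -0.10 in females. IPO11 had 0.39 (SE 0.12, adjusted p = 0.0434), with -0.02 in males and the fall in females. With the depth set as a term 0 of the 46 were called, 2 had an unadjusted p under 0.05, and ACOT12 had 3.26 (adjusted p = 0.128). The share of all genes called with that term is not given here. The number called was 1 without male 20-day replicate 2 or without female 20-day replicate 5.

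Genes that work with the 46 were taken from lists of complexes and pathways, and 102 of their 119 members were tested. Of the 92 autosomal partners 0 were called higher and 1 lower in males at 20 days, and 12 were higher and 20 lower at 50 days. Those were 13% and 21.7% of them at 50 days, near the 15.5% and 19.7% of all autosomal genes. Of the 10 Z-linked partners 4 were higher at 20 days, and 7 were higher and 2 lower at 50 days. Among all Z-linked genes 42.7% were higher at 20 days, and 57.4% higher and 5.32% lower at 50 days. GTF2H2, a TFIIH subunit on Z like CDK7 and CCNH, was 49.6 ± 5.3 CPM in males and 26.8 ± 3.65 CPM in females at 20 days (SD, n = 5 each), a difference of 0.89. CENPH, the kinetochore partner of CENPK on Z, had differences of 0.93 at 20 days and 1.41 at 50 days, and HAUS1, an augmin subunit on Z, 0.93 and 0.91. Of the autosomal members of these complexes, 4 in the CDK-activating and TFIIH list, 2 in the kinetochore list and 3 in the augmin list, 0 were called at 20 days, when 0.124% of autosomal genes were called higher and 0.209% lower. At 50 days 2 of the 4 and 1 of the 2 were lower in males, and 1 of the 3 was higher.

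The one autosomal partner called at 20 days was UBQLN4, which falls in the same family as UBQLN1 and differed by -0.27. SMAD7, an inhibitor of TGF-beta signalling on Z, was 0.75 higher. At 50 days F2RL2, a protease-activated receptor of the F2R family on Z, had a difference of 1.52 (adjusted p = 6.75e-06). HOMER3, an autosomal relative of HOMER1, had 0.85, and GRM5, a glutamate receptor that binds HOMER proteins, had -1.39, at 42.1 ± 11.8 CPM in males (SD, n = 5) and 110 ± 18.1 CPM in females (SD, n = 7). BAG2, an autosomal relative of BAG1, had 0.77. Markers of GABAergic interneurons and astrocytes moved at the same age, and their part in these values was not tested.

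Order along Z was read from the bTaeGut7.mat table, which may not be the assembly behind the counts. Among the 46 genes 5 pairs had no other tested gene between them. APTX and DNAJA1 differed by 1.10 and 0.79 between the sexes at 20 days, NSA2 and GFM2 by 0.94 and 0.98, and SMARCA2 and VLDLR by 0.56 and 0.35. SCAMP1 and AP3B1 had 0.37 and 0.92, and SSBP2 and ACOT12 had 0.31 and 0.89. At 50 days APTX and DNAJA1 stood at 0.75 and 0.55, NSA2 and GFM2 at 0.71 and 1.29, and SMARCA2 and VLDLR at 0.50 and 0.16. SCAMP1 and AP3B1 stood at 0.36 and 1.26, and SSBP2 and ACOT12 at 0.26 and 3.56. KIF2A and IPO11, with 1 tested gene between them, had 0.08 and 0.82 at 20 days. The difference between neighbours was not tested.

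**Figure D5:**
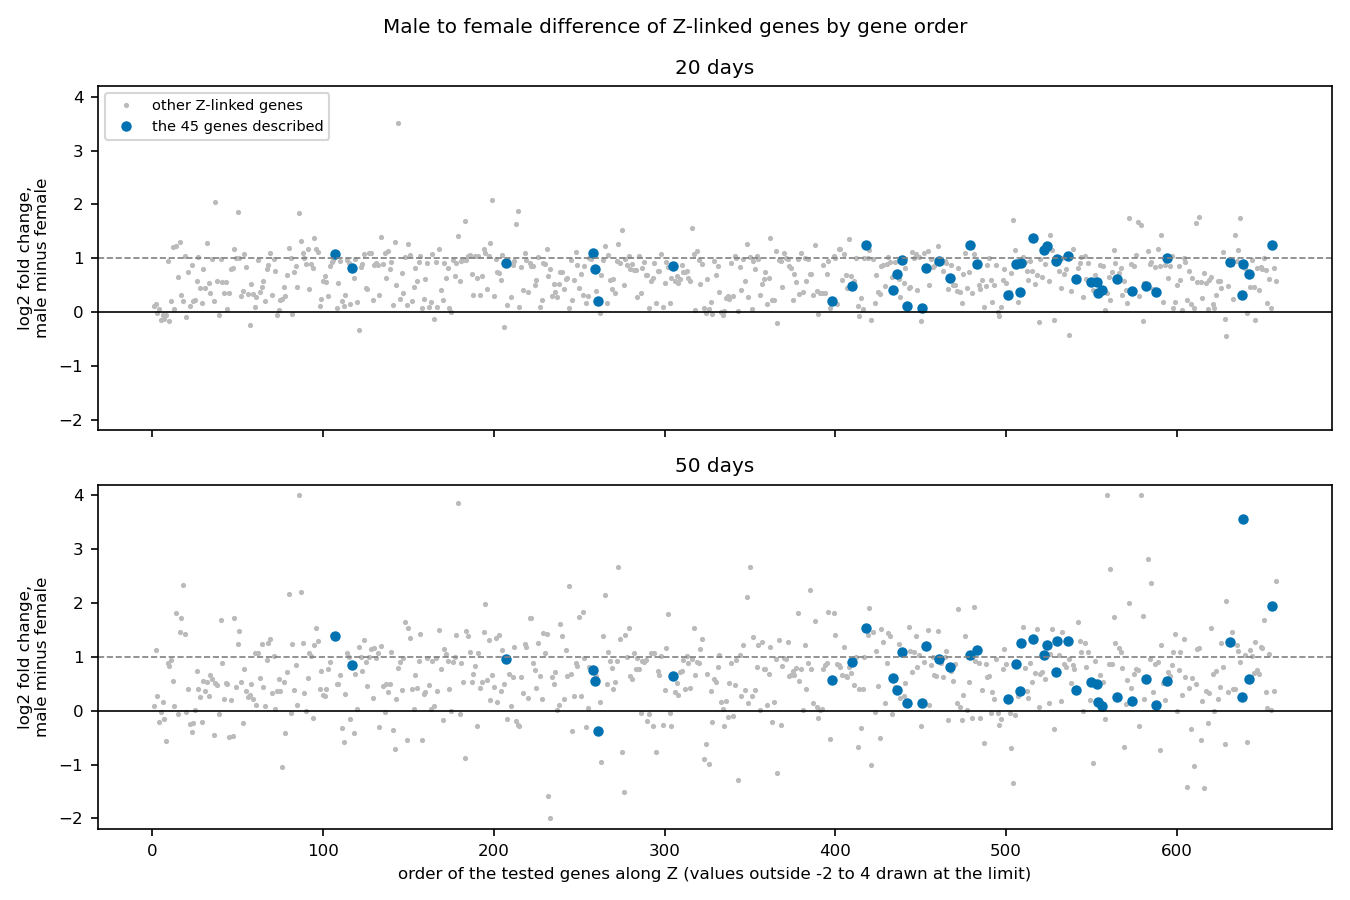
Log2 male to female difference of Z-linked genes in their order along the chromosome at each age, with the 45 genes in colour and the other tested Z-linked genes in grey. Adjacent genes can differ, as SCAMP1 and AP3B1 do with 0.37 and 0.92 at 20 days.

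Across the 45 genes the difference of a gene and the median of up to 5 tested neighbours on each side were related with Pearson's r of -0.27 at 20 days and 0.01 at 50 days. GRHPR, near the end of the order, had 7 neighbours in all. Of Z genes listed here as keeping a copy on W in birds 16 were tested, with a median of 0.36 at 20 days and 0.17 at 50 days. Of these 9 (56.2%) were called higher in males at 20 days, and 7 (43.8%) higher and 2 (12.5%) lower at 50 days. All Z-linked genes had 42.7% higher at 20 days, and 57.4% higher and 5.32% lower at 50 days. The medians of the 46 genes, 0.81 and 0.68, stood above those of the genes with a W copy, as a description without a test. So did the medians of Z-linked genes outside the set, 0.69 and 0.67.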

How the data were processed

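The authors deposited unnormalised counts of reads, as whole numbers by NCBI gene ID and library, per the file headers. The submitters' processing notes name Trimmomatic 0.36, FastQC 0.11.9 and STAR 2.6.1. The genome build, the annotation, the tool used for counting and its use of strand were not given in the sources used here. Entries without a gene ID, 169 in number and 0.0344% to 0.0739% of a library's counts, were left out.

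The members and the lists of roles, partners, W copies and cell type markers were chosen with earlier results of these data known. Symbols and chromosomes came from the bTaeGut7.mat table, which matched 16205 gene IDs. Libraries were grouped by sex and age as labelled. Replicates carry numbers and brain ids, and those of female 50-day replicates 5 and 6 share a number, so p-values measure the spread between libraries, which may be from 1 bird in that pair. Counts were filtered with filterByExpr, scaled by TMM and fitted with edgeR 4.0.16 in R 4.3.3, with 4 groups and no other term, and contrasts were adjusted over the 16004 genes tested. A 95% interval is the fitted difference with its SE and t quantile, and differences are on the log2 scale. The SE was derived from the test, as the size of the fitted difference divided by the square root of the quasi-likelihood F statistic.

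Genes given by library are the 5 highest and 3 lowest differences between the sexes at each age, the 3 highest called rises and falls of each age contrast and the interaction, and 10 genes of signalling and transcription chosen by name, among them SMAD4. The partners given are the called ones with the smallest p at each age, at most 6, and 5 were called at 20 days. On simulated data of the 20-day sex comparison the test recovered 25% of genes changed 1.5-fold and 59% of those changed 2-fold, over 15809 genes. Over the sex and age comparisons these rates were 14% to 35% and 50% to 59%. The changed genes were drawn at random from all genes passing the filter, so the rates are not those of the genes described here. Alternatives were DESeq2 1.42.0, limma 3.58.1 (voom), other scalings, filters, samples and thresholds, a replicate block, a depth term and leaving out each library.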

Additional observations from a re-analysis of the deposited data

Results flagged for a closer look

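In groups of 4 to 10 libraries a value was set apart when its gap to the next, divided by the range of the group, passed Dixon's 95% critical value. Of 184 tests over the 46 genes 9 passed, and chance passes about 1 in 20 groups. ACOT12 read 25.5 CPM in female 50-day replicate 7, where the next highest was 10.9 CPM. XRCC4 read 5.99 CPM in the same library, where the next was 3.41 CPM, and 7.84 CPM in male 20-day replicate 2, where the next was 5.83 CPM. BTF3 read 134 CPM in that male library, where the next was 110 CPM. RMI1 read 11.6 CPM in male 50-day replicate 5, above 9.24 CPM, and SMARCA2 read 261 CPM in male 20-day replicate 3, above 225 CPM. Low values were those of B4GALT1 in male 50-day replicate 1 (18.8 CPM, next 21 CPM), POLK in female 20-day replicate 3 (8.89 CPM, next 12.1 CPM) and IL6ST in male 20-day replicate 4 (34.5 CPM, next 41.4 CPM).

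The interaction of sex and age was called, in edgeR's quasi-likelihood test, for ACOT12 (2.66, adjusted p = 0.00393), B4GALT1 (-0.57, adjusted p = 0.0251) and IPO11 (0.39, adjusted p = 0.0434). With the depth set as a term all 3 calls were lost, with adjusted p of 0.128, 0.578 and 0.62 in that order, and the IPO11 call was lost without any of 13 libraries in turn.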

How the results depend on the processing

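Of 230 gene results, each of the 46 genes in the 5 contrasts, 168 kept their side of the threshold under every alternative run. Reversed calls numbered 0. Some uncalled differences changed sign between alternatives, such as that of SSBP2 at 20 days (-0.01 to 0.45). Of 97 calls 45 were lost under some alternative, and 17 results gained a call. At an adjusted p under 0.01 the genes called were 10 for the age change in males (19 as reported), 4 in females (9 as reported) and 1 for the interaction (3 as reported). With the depth set as a term they were 11 in males, 2 in females and 0 for the interaction, and in shallow libraries alone 4 in males. The cause of these changes was not tested, and the shares of all genes called under these settings are not given here. Leaving out each library in turn gave 28 to 32 genes for the sex difference at 20 days, 34 to 37 at 50 days, 15 to 20 for the age change in males, 5 to 9 in females and 1 to 4 for the interaction. The count in females was 5 without female 20-day replicate 4, and that of the interaction was 4 without female 50-day replicate 7. The least stable age calls were those of TNPO1 (lost without any of 14 libraries) and MAP3K1 (13) in males and HOMER1 (10) in females, and the IPO11 interaction was lost without any of 13.

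Deviations of libraries with the same replicate number correlated at a median of -0.016 over 30 pairs, with 3 pairs over 0.1. Libraries with different numbers had a median of -0.008 over 120 pairs, with 8 over 0.1. The main fit did not use the numbers as pairs, and a pairing of only some libraries was not tested. With a replicate block, over 20 libraries, 29 and 35 genes were called in the sex differences at 20 and 50 days, 18 and 8 in the age changes in males and females, and 3 in the interaction. With female 50-day replicates 5 and 6 summed the MAP3K1 call at 50 days was lost and UHRF2 was called at 20 days. The smallest count of the 46 genes in a library was 30, for XRCC4, and no molecular identifiers marked PCR copies.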
